A study of Homo sapiens with 24 samples.

Results

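The genes described here are 10 genes of interleukin-6 (IL-6) family signaling through JAK1 and STAT3, taken by gene symbol from the 33127 genes that the deposited count table can be joined to. They are the cytokine genes *IL11*, *IL6* and *LIF*, the receptor genes *IL6R*, *IL6ST*, *LIFR* and *OSMR*, the kinase gene *JAK1*, the transcription factor gene *STAT3* and the feedback inhibitor gene *SOCS3*. All 10 have rows in the table, and 9 passed the filter on low counts, with *IL6* below it. The samples were cultures of A549, an established human cell line from a lung adenocarcinoma, grown in F-12K medium with fetal bovine serum. Cells received 100 nM dexamethasone (dex), a synthetic glucocorticoid (GC), in ethanol, or an equal volume of ethanol alone (EtOH, 0.02% of the medium), for 1, 3, 5, 7, 9 or 11 h. Each of the 12 combinations of treatment and time had 2 libraries of poly-A RNA, labelled as biological replicates, which makes 24 libraries. Between 6708864 and 13748598 reads were counted per library, with a median of 10109393.5. Every group is the same cell line, so the values describe A549 and no other airway cell.

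Cytokines of the IL-6 family signal through receptor complexes that share the subunit gp130, the product of *IL6ST*. The IL-6 and IL-11 receptors each pair a ligand-binding chain with gp130, whereas leukemia inhibitory factor (LIF) and oncostatin M act through gp130 joined to the products of *LIFR* or *OSMR*. Ligand binding activates the receptor-associated kinase JAK1, which phosphorylates STAT3. STAT3 then enters the nucleus and activates its target genes, among them *SOCS3*, whose product in turn inhibits gp130 and the JAK kinases. In liver and lung epithelium this route is known for the acute-phase response, and GCs are known both to repress inflammatory cytokine genes and to act together with STAT3 on acute-phase genes.

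Windows from 250 bases before to 50 bases after the annotated RefSeq start (GRCh38.p14) were available for 9 of the 10 members, 14 windows in all, and not for *LIF*. The stretches below are shown because they belong to the member with the largest fall, to the member at the limit of detection and to the member with the largest rise. Capitals mark a match to the AP-1 letters TGANTCA or the NF-kappa-B letters GGG and TTTCC set 2 bases apart, both searched on both strands. The *IL11* stretch is chr19:55370464-55370713 on the minus strand, the 250 bases before the start. The *IL6* stretch is chr7:22727117-22727146 and the *IL6R* stretch chr1:154405360-154405389, both on the plus strand.
IL11: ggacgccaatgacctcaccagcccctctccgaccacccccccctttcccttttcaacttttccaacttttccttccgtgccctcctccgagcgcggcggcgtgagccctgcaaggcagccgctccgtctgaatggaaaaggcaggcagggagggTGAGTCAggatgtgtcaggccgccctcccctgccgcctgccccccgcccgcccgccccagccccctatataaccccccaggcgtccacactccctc
IL6: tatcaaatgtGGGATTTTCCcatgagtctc
IL6R: gccaggaccgtccgccgctcTGAGTCAtgt
The *IL11* match began 96 bases before the start, the *IL6* match 73 bases before it, and the *IL6R* match at base 38 after it. *OSMR* also held an AP-1 match, TGATTCA, at base 4. A STAT match (TTCNNNGAA) was found in 2 of the 3 *LIFR* windows, 165 and 182 bases before their starts. No member window held the GC receptor letters GNACA and TGTNC set 3 bases apart. Among all 35116 windows of this length, 7.71% held the AP-1 letters, 7.66% the STAT letters, 1.91% the NF-kappa-B letters and 0.39% the GC receptor letters. The letters overlapped one another in none of the matches listed, and a match describes the window and is not a measured binding site.

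The treatment labels were first read against known GC-responsive genes. *TSC22D3*, which encodes the GC-induced leucine zipper, was at 75.2 and 84.7 counts per 1000000 reads (CPM, scaled by TMM, the trimmed mean of M-values) in the 1 h dex libraries and at 7.12 and 9.63 CPM in the 1 h EtOH libraries. Across all time points its lowest dex library (75.2 CPM) lay above its highest EtOH library (9.88 CPM). *PER1*, *DUSP1*, *KLF9* and *FKBP5* likewise had every dex library above every EtOH library, and 4 of the 5 genes of this list passed the test as higher at 1 h (0.523% of features) and all 5 passed at each later time point (between 5.31% and 13.4%). *FKBP5* had an adjusted p of 0.135 at 1 h. The epithelial keratin genes *KRT8* and *KRT18* were abundant, with medians of 1921 and 2270.2 CPM over the EtOH libraries and 3821 and 4022 CPM over the dex libraries. Both passed as higher with dex from 3 h. *EPCAM* had medians of 9.05 CPM with EtOH and 5.93 CPM with dex and passed as lower at 5, 7 and 9 h, and *KRT19* had medians of 14.6 and 10.6 CPM and passed as lower at 5 h and 9 h. *CDH1* had medians of 34.6 and 38.1 CPM and passed as higher at 5 h and 7 h. Of the leukocyte markers, *CD3E* had 0 counts and *PTPRC* 10 counts in all 24 libraries together, and the summed level of the 5 genes lay between 1.19 and 5.14 CPM, with *CD14* the most counted. Of 5 fibroblast markers *COL1A1* was the most counted and the sum lay between 5.93 and 24.4 CPM. *COL1A1* passed as higher with dex at 3 h and as lower at 5, 7 and 9 h. The 4 endothelial markers in the table summed to at most 1.21 CPM, led by *CDH5*, and *VWF* had 2 counts in total. The filter on low counts left 2 leukocyte markers (*CD14* and *ITGAM*) and 1 endothelial marker (*CDH5*) to test, and none of these 3 passed at any time point. *KDR*, an endothelial marker that was not tested, held 23 reads over the 12 dex libraries and 1 over the 12 EtOH libraries, with at most 5 in a library. The part that *COL1A1* and *KDR* may have in the results below was not tested.

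Divided by transcript length, *JAK1* was the highest of the 10 genes in vehicle-treated cells. Its per-length level in the 12 EtOH libraries was 207 ± 9.19 TPM (transcripts per 1000000, computed from the counts, mean ± SD). *IL6ST* (112 ± 13.8 TPM), *STAT3* (93.3 ± 6.60 TPM) and *OSMR* (84.4 ± 6.81 TPM) followed, and the range of each over the EtOH libraries overlapped that of the next. *IL11* (33.6 ± 3.41 TPM) and *LIF* (28.9 ± 4.04 TPM) also overlapped, but lay below the lowest *OSMR* library. *LIFR* was at 11.8 ± 1.86 TPM, and its range overlapped that of *SOCS3* (6.67 ± 1.55 TPM). *IL6R* was at 2.98 ± 0.707 TPM, below every *SOCS3* library, and *IL6* was at 0.455 ± 0.366 TPM. Vehicle-treated A549 cells thus held more mRNA for the signaling subunit gp130 than for the IL-6 binding chain. With dex, *IL6R* averaged 13.8 ± 4.67 TPM and *IL11* 4.22 ± 2.61 TPM over 12 libraries and 6 time points. These means pool different levels, since at 1 h with dex *IL6R* was at its lowest (4.06 TPM) and *IL11* at its highest (10.2 TPM). These levels use the transcript lengths of GENCODE 29, whereas the reads were counted on GENCODE 19 transcripts. They also rest on how reads matching several transcripts were placed, which is not given. *IL6ST* had 10 transcripts in the table and *JAK1* had 1, and the part of this in the order of genes was not tested.

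**Figure D1:**
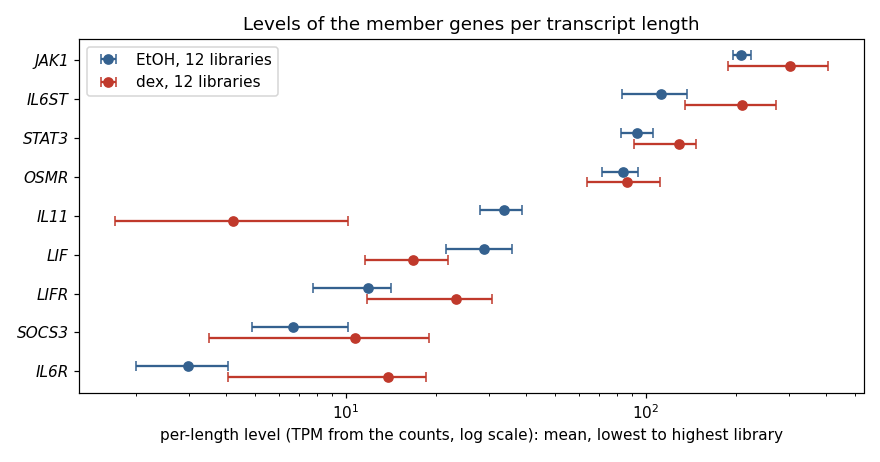
Per-length levels (TPM computed from the counts, log scale) of the 9 tested members. Points are means over 12 EtOH or 12 dex libraries, pooled over 6 time points, and bars run from the lowest to the highest library. *IL6R* lies lowest with EtOH (2.98 TPM) and *IL11* lowest with dex (4.22 TPM).

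The number of members that passed the test of dex against EtOH was small at 1 h and large from 3 h. Few features of any kind passed at 1 h. At 1 h, 2 of the 9 tested members passed an adjusted p of 0.1, 1 higher and 1 lower, where 0.864% of all 19897 tested features passed. At 3 h 8 members passed (background 12.9%), 5 of them higher (7.66% of features) and 3 lower (5.29%). At 5 h 8 passed (23.1%), at 7 h and 9 h all 9 (25.8% and 18.2%), and at 11 h 8 (8.58%), 6 higher (5.31%) and 2 lower (3.27%). The median log2 fold change of the 9 members was 0.01 at 1 h, 0.35 at 3 h, 0.60 at 5 h, 0.91 at 7 h, 0.70 at 9 h and 0.71 at 11 h, while the median over all tested features stayed between -0.0096 and 0.0044. The direction differed between members. The ligand genes *IL11* and *LIF* were the 2 members that passed as lower at every time point from 3 h, and *IL6R*, *IL6ST*, *LIFR*, *JAK1* and *STAT3* passed as higher at each of them. *SOCS3* passed as higher from 7 h, and *OSMR* as lower at 3 h and as higher at 5, 7 and 9 h. In bulk RNA, fewer cells expressing a gene and less RNA per cell cannot be told apart.

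**Figure D2:**
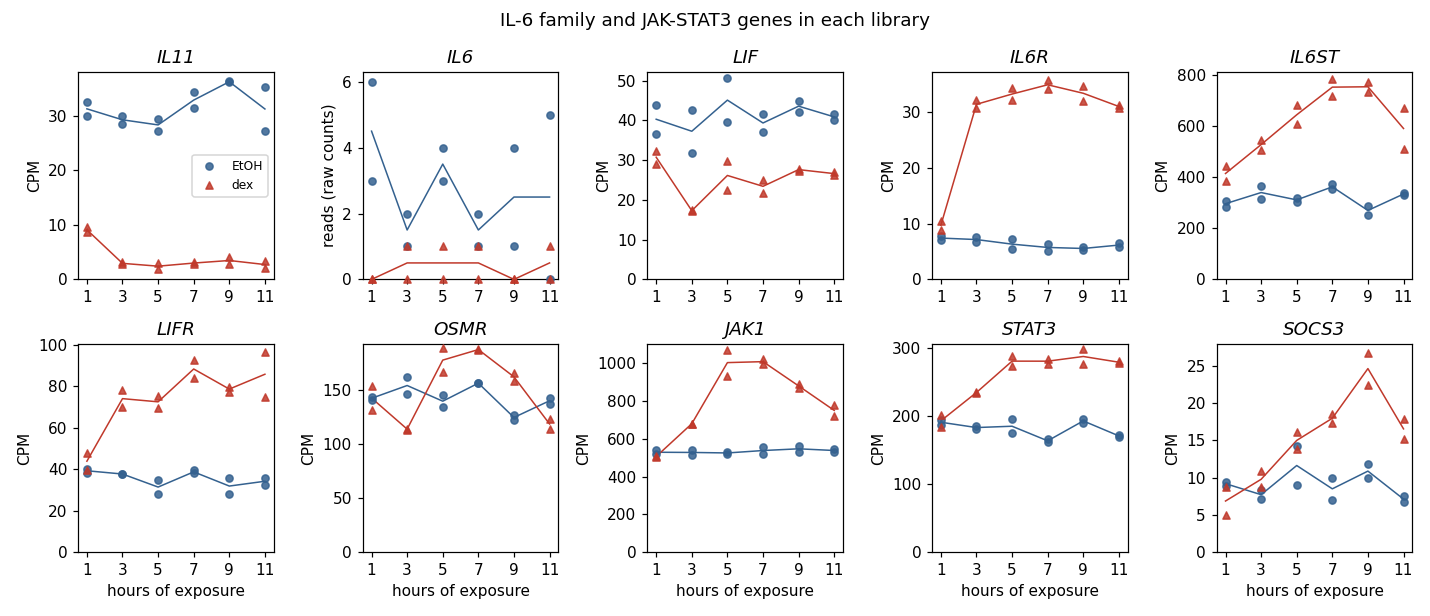
Level of each member in every library against hours of exposure (CPM after TMM scaling, and raw read counts for *IL6*). Circles are EtOH and triangles dex libraries, 2 per treatment and time point, and lines join their means. *IL11* and *LIF* lie lower with dex in every pair of groups, and *IL6R* and *IL6ST* higher.

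*IL11*, which encodes a cytokine that acts on epithelial and stromal cells through gp130, fell early and furthest. At 1 h it was at 8.66 and 9.53 CPM in the dex libraries and at 30.0 and 32.5 CPM in the EtOH libraries, a mean 3.44-fold higher with EtOH (log2 fold change -1.78, SE 0.17, adjusted p = 1.71e-06). At 3 h the dex libraries were at 3.10 and 2.78 CPM and the EtOH libraries at 29.9 and 28.6 CPM, a 9.95-fold difference (log2 fold change -3.32, SE 0.19, adjusted p = 5.97e-15). After that the level with dex changed little. The dex libraries were at 2.94 and 1.90 CPM at 5 h, 3.22 and 2.77 CPM at 7 h, 4.16 and 2.77 CPM at 9 h, and 2.02 and 3.43 CPM at 11 h. The EtOH libraries of these times lay between 27.1 and 36.3 CPM, so the groups were far apart at all 6 time points. The log2 fold change stayed between -3.43 and -3.54 from 5 h to 11 h, with adjusted p between 3.97e-18 and 1.62e-06. All 4 *IL11* transcripts in the table held fewer reads with dex. The most counted one, ENST00000264563, had 348 reads over the 12 dex libraries and 3271 over the 12 EtOH libraries. The gene lies on chromosome 19 (GRCh38, 55364389 to 55370463, minus strand), and its exons share no base with another gene of the table.

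*LIF*, which encodes the ligand of the LIF receptor and gp130, also fell, but by less and with its lowest level at 3 h. At 1 h it was at 29.1 and 32.4 CPM with dex and 36.7 and 43.9 CPM with EtOH, values that did not overlap but did not pass the test across all genes (log2 fold change -0.39, SE 0.14, adjusted p = 0.526). With the replicate number as a block in the fit it passed at 1 h (-0.38, adjusted p = 0.0516). At 3 h the dex libraries were nearly equal at 17.3 and 17.2 CPM, and the EtOH libraries were at 31.9 and 42.7 CPM (log2 fold change -1.12, SE 0.15, adjusted p = 6.93e-07). From 5 h to 11 h the dex libraries lay between 21.8 and 29.8 CPM and the EtOH libraries between 37.2 and 50.6 CPM. The log2 fold change over these times moved from -0.79 at 5 h to -0.62 at 11 h. Leaving out dex replicate 1 or 2 at 9 h raised the adjusted p to 0.12 and 0.119. Leaving out EtOH replicate 1 or 2 at 11 h raised it to 0.348 and 0.419, with log2 fold changes of -0.64 and -0.61. Averaged over the course, the log2 fold change of *LIF* was -0.72 (SE 0.06, adjusted p = 9.00e-11, 34.0% of features passing). *LIF* lies on chromosome 22 from 30240447 to 30246851.

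*IL6* itself was close to the limit of detection in A549 cells and was lower still with dex. It held 32 reads over the 12 EtOH libraries and 4 reads over the 12 dex libraries. In the EtOH libraries the counts were 6 and 3 at 1 h, 1 and 2 at 3 h, 4 and 3 at 5 h, 1 and 2 at 7 h, 4 and 1 at 9 h, and 5 and 0 at 11 h. In the dex libraries they were 0 and 0 at 1 h, 0 and 1 at 3 h, 1 and 0 at 5 h, 0 and 1 at 7 h, 0 and 0 at 9 h, and 1 and 0 at 11 h. A read was found in 11 of 12 EtOH and in 4 of 12 dex libraries, and a count of 0 allows for up to 3 reads. The mean was 0.0349 CPM with dex and 0.254 CPM with EtOH, and the dex mean was the lower one at all 6 time points. An exact permutation test that exchanged labels within each time point (46656 arrangements, two-sided), chosen after these counts were seen, gave p = 0.000814. Without the filter on low counts, the test of single time points gave adjusted p between 0.289 and 0.788, so no time point showed the difference by itself at this depth. *IL6* shares 46 exon bases with *STEAP1B* and 428 with AC073072.1, both on the other strand, which held 493 reads and 1 read.

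*IL6R*, the gene of the IL-6 binding chain, rose more than any other member. At 1 h the dex libraries, at 10.5 and 8.92 CPM, were above the EtOH libraries, at 7.81 and 7.04 CPM, but the difference did not pass (log2 fold change 0.41, SE 0.21, adjusted p = 0.787). At 3 h the dex libraries were at 32.2 and 30.7 CPM and the EtOH libraries at 7.53 and 6.79 CPM, a 4.39-fold difference (log2 fold change 2.13, SE 0.16, adjusted p = 4.84e-12). At 7 h they were at 34.2 and 35.8 CPM and at 5.13 and 6.35 CPM, a 6.09-fold difference. The level with dex was thus reached by 3 h and stayed between 30.7 and 35.8 CPM until 11 h, when the log2 fold change was 2.33 (SE 0.20, adjusted p = 5.58e-06). The most counted of 5 transcripts, ENST00000368485, held 82.2% of the reads, 2829 over the dex and 687 over the EtOH libraries. A shorter one, ENST00000344086, held 451 and 98 reads, so both were more abundant with dex. *IL6R* lies on chromosome 1 from 154405193 to 154469450 on the plus strand.

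*IL6ST*, the gene of the shared subunit gp130, was the single member that passed as higher at 1 h. It was at 445 and 383 CPM in the 1 h dex libraries and at 307 and 284 CPM in the EtOH libraries (log2 fold change 0.49, SE 0.11, adjusted p = 0.0386). Leaving out EtOH replicate 1 or 2 at 1 h ended this call (adjusted p = 0.320 and 1.00), with log2 fold changes of 0.55 and 0.44. Its level with dex then climbed more slowly than that of *IL6R*. The dex libraries were at 507 and 547 CPM at 3 h, 680.9 and 606 CPM at 5 h, 718 and 785 CPM at 7 h, and 773 and 733 CPM at 9 h. The EtOH libraries over the course stayed between 253 and 372 CPM. The difference was widest at 9 h, with a mean of 753 CPM against 269.6 CPM (log2 fold change 1.49, SE 0.12, adjusted p = 2.28e-07). At 7 h the dex mean was nearly the same, at 751 CPM, against a higher EtOH mean of 362 CPM (log2 fold change 1.05). The step from 7 h to 9 h thus lay in the EtOH libraries. At 11 h the dex libraries were apart from each other, at 670.0 and 509.7 CPM, and both were above the EtOH libraries at 331 and 336 CPM (log2 fold change 0.82, SE 0.15, adjusted p = 0.00370). The reads of *IL6ST* were spread over 10 transcripts, of which the most counted held 27.5%, so only the sum per gene is described here. Its exons share 797 bases with AC008914.1 on the other strand, which held 1791 reads against 112381 for *IL6ST*.

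*LIFR*, the gene of the LIF receptor chain, had overlapping groups at 1 h, with 47.9 and 39.8 CPM with dex and 40.1 and 38.4 CPM with EtOH. At 3 h it was at 70.0 and 78.2 CPM with dex and 37.6 and 37.8 CPM with EtOH (log2 fold change 0.97, SE 0.12, adjusted p = 1.58e-07). The 2 groups did not overlap from 3 h on, and the log2 fold change lay between 1.19 and 1.33 from 5 h to 11 h. At 11 h the dex libraries were at 96.9 and 74.9 CPM and the EtOH libraries at 35.8 and 32.5 CPM, a 2.51-fold difference (adjusted p = 1.62e-04). From 3 h to 11 h *LIFR* was thus higher with dex while *LIF* was lower with dex. *LIFR* lies on chromosome 5 (38474963 to 38608354) and shares 629 exon bases with the antisense gene *LIFR-AS1*, which held 254 reads against 13335.

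*OSMR*, the gene of the oncostatin M receptor chain, was the one member that passed in both directions. At 1 h the groups overlapped (154 and 131 CPM with dex, 144 and 141 CPM with EtOH). At 3 h it passed as lower, at 114 and 113 CPM with dex and 162 and 146 CPM with EtOH (log2 fold change -0.45, SE 0.10, adjusted p = 0.00248). At 5 h it passed as higher, at 189 and 167 CPM with dex and 134 and 145 CPM with EtOH (log2 fold change 0.34, SE 0.10, adjusted p = 0.0128). It stayed higher at 7 h (187.0 and 188 CPM against 156 and 157 CPM) and at 9 h (166 and 158 CPM against 122 and 127 CPM). At 11 h the dex libraries, at 123 and 114 CPM, lay below the EtOH libraries, at 137 and 143 CPM, a difference that did not pass (log2 fold change -0.24, SE 0.14, adjusted p = 0.414). The higher values were small, and leaving out some single libraries ended their calls. The adjusted p at 5 h was 0.200 without dex replicate 1 and 0.105 without EtOH replicate 1. At 7 h it was 0.148 and 0.152, and at 9 h 0.372 and 0.251, without dex replicate 1 and 2. At 11 h it was 0.0262 without dex replicate 1, with a log2 fold change of -0.29. Over the whole course the average log2 fold change was 0.05 (SE 0.04, adjusted p = 0.357). *OSMR* shares 229 exon bases with *RICTOR* on the other strand, which held 13757 reads against 35678, and whether counting used the strand of the reads is not given in the sources used here.

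*JAK1*, the gene of a kinase bound to gp130, did not pass at 1 h and was highest with dex at 5 h and 7 h. At 1 h the dex libraries were at 507 and 505 CPM and the EtOH libraries at 518 and 539.5 CPM (log2 fold change -0.06, SE 0.10, adjusted p = 0.982). At 3 h they were at 679 and 681 CPM with dex and 513 and 543 CPM with EtOH (log2 fold change 0.36, SE 0.09, adjusted p = 0.00921). At 5 h they were at 1073 and 936 CPM with dex and 519.9 and 530.3 CPM with EtOH (log2 fold change 0.93, SE 0.10, adjusted p = 5.44e-10). All 12 EtOH libraries lay between 513 and 565 CPM, so the change over time was in the dex libraries. The dex libraries were at 997 and 1023 CPM at 7 h, 892 and 870.2 CPM at 9 h, and 780.4 and 721 CPM at 11 h. The 11 h difference was 0.48 (log2, SE 0.13, adjusted p = 0.0502) and did not pass without EtOH replicate 1 or 2 (adjusted p = 0.504 and 0.640), nor did the 3 h difference without EtOH replicate 1 (0.123).

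*STAT3*, the gene of the transcription factor at the end of this route, passed as higher from 3 h and kept its level with dex from 5 h. At 1 h the groups overlapped (184 and 201 CPM with dex, 195 and 187 CPM with EtOH). At 3 h it was at 236 and 233 CPM with dex and 186 and 180.3 CPM with EtOH (log2 fold change 0.35, SE 0.10, adjusted p = 0.0143). This call was lost when only the leading transcript of each gene was used. From 5 h to 11 h all 8 dex libraries lay between 273 and 299 CPM and the EtOH libraries between 161 and 196 CPM. The log2 fold change was 0.60 at 5 h, 0.78 at 7 h (SE 0.07, adjusted p = 2.04e-10), 0.59 at 9 h and 0.71 at 11 h. The call at 9 h was lost without dex replicate 2 (adjusted p = 0.138), and that at 11 h without EtOH replicate 1 or 2 (0.135 and 0.190). *STAT3* lies on chromosome 17 from 42313324 to 42388568 on the minus strand, and its exons share no base with another gene of the table.

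*SOCS3*, the feedback inhibitor gene that STAT3 activates, was the last member to pass. At 1 h it was at 4.92 and 8.77 CPM with dex and 9.46 and 8.91 CPM with EtOH (log2 fold change -0.47, SE 0.24, adjusted p = 0.808). Leaving out dex replicate 2 made that difference pass as lower (log2 fold change -0.89, adjusted p = 0.0290). At 3 h it was at 8.67 and 10.9 CPM with dex and 7.13 and 8.28 CPM with EtOH, and at 5 h at 16.1 and 13.9 CPM with dex and 9.03 and 14.2 CPM with EtOH. Neither time point passed, and at 5 h the groups overlapped through EtOH replicate 2, without which the adjusted p was 0.0191 and the log2 fold change 0.74. At 7 h it was at 17.4 and 18.6 CPM with dex and 7.01 and 9.97 CPM with EtOH (log2 fold change 1.08, SE 0.17, adjusted p = 4.34e-06). At 9 h it was highest, at 22.5 and 26.8 CPM with dex and 11.8 and 9.91 CPM with EtOH (log2 fold change 1.20, SE 0.17, adjusted p = 1.44e-04), and at 11 h the log2 fold change was 1.21 (SE 0.21, adjusted p = 0.00236). Over the course the average was 0.62 (SE 0.09, adjusted p = 3.19e-06). Without the libraries of replicate 2 it was 0.64 with an adjusted p of 0.158.

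**Figure D3:**
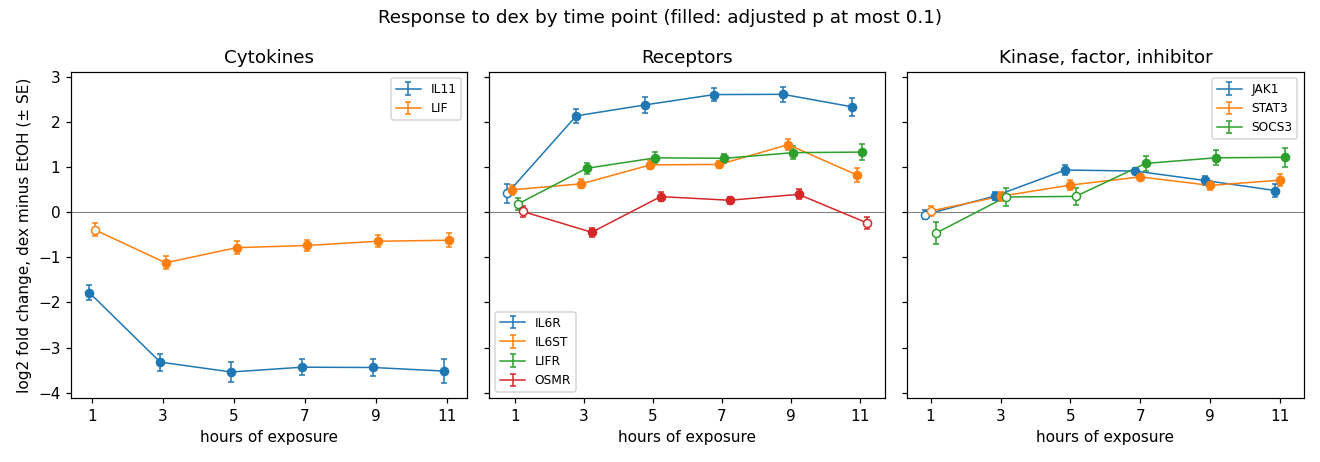
Log2 fold change (dex minus EtOH, edgeR, ± SE) of the 9 tested members against hours of exposure. Filled points passed an adjusted p of 0.1 and open points did not. The cytokine genes lie below 0 throughout, *IL6R* reaches 2.61 at 9 h, and *OSMR* lies near 0 at 1 h (0.01), below it at 3 h and 11 h and above it from 5 h to 9 h.

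Whether the response to dex differed between time points was tested in a single fit over the 24 libraries. The differences among the 6 time points passed for 8 of the 9 members (adjusted p between 3.64e-07 for *IL6R* and 0.00181 for *SOCS3*), where 13.8% of all features passed, and not for *LIF* (adjusted p = 0.243). From 1 h to 3 h the dex effect changed for 6 members (background 4.39%), toward lower for *IL11*, *LIF* and *OSMR* (1.78% of features) and toward higher for *IL6R*, *LIFR* and *JAK1* (2.61%). Between 5 h and 11 h it changed for 2 members (2.41%), toward lower for *OSMR* and *JAK1* (0.658% of features), and toward higher for none (1.75%). For *IL6R* the difference between 11 h and 5 h was -0.04 (SE 0.23, adjusted p = 0.977) and for *IL11* 0.02 (SE 0.32, adjusted p = 0.989). In the EtOH libraries alone no member passed a test for change over time (adjusted p between 0.303 and 0.994, with 0.0704% of features passing). Before adjustment, edgeR's quasi-likelihood test gave *IL6ST*, *OSMR* and *SOCS3* values under 0.05. Averaged over the 6 time points, 8 members passed, 2 as lower (17.6% of features) and 6 as higher (16.4%). These averages were -3.17 for *IL11*, 2.08 for *IL6R*, 1.03 for *LIFR*, 0.92 for *IL6ST*, 0.55 for *JAK1* and 0.51 for *STAT3*.

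The genes whose log2 CPM followed the leading members most closely over the 24 libraries are given as a description. For *IL11* they were *NUAK1* (Pearson r = 0.98), *KRT80* (0.97) and *ENC1* (0.97), for *IL6R* *TFCP2L1* (0.99), *EPB41L4B* (0.99) and *ALPG* (0.99), and for *LIFR* *TGFBR1* (0.98), *CPEB4* (0.98) and *TMEM245* (0.98). Among the members, *IL11* and *IL6R* were opposed (r = -0.98), *IL6R* and *LIFR* went together (0.97), and *OSMR* was the least tied to the others, with r between -0.14 and 0.47. All of these values come from the same libraries and share the 2 treatments, so each mainly restates that both genes differ between dex and EtOH.

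The other genes of the route were taken from lists of ligands, receptors, kinases, STATs, inhibitors and STAT3 target genes, with 62 genes in all, of which 61 are in the table and 49 were tested. At 2 or more consecutive time points 24 of the 49 passed (18.9% of all features), 22 of them higher on average with dex (9.98%) and 2 lower (8.94%). The 22 include *SOCS1*, which only its dex libraries brought through the filter on low counts. Most of the remaining ligands were scarce. *IL27* had 0 counts in all 24 libraries, *OSM*, the oncostatin M gene, 6 reads and *IL31* 2 reads in total, and the 2 ligand genes tested passed at no time point. The oncostatin M receptor gene was therefore measured in cells with almost no oncostatin M mRNA. Of 4 tested receptor genes, *IL27RA* passed as lower at 5 h (log2 fold change -0.75, 11.9% of features) and the others at no time point. *IL11RA*, the IL-11 binding chain, was among these, with log2 fold changes between -0.09 and 0.73, so the gene of its ligand was called and its own was not. These and other genes outside the rule for naming were named after their values were seen.

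Among the kinases and STATs beside *JAK1* and *STAT3*, *JAK2* passed as higher at 5, 7, 9 and 11 h. At 9 h it was at 12.8 and 14.5 CPM with dex and 8.28 and 4.86 CPM with EtOH (log2 fold change 1.06, SE 0.23, adjusted p = 0.00506). *TYK2* and *JAK3* did not pass at any time point. *STAT2* passed as higher at 5, 7 and 11 h and *STAT4* at 5, 7 and 9 h, with log2 fold changes at 5 h of 0.40 and 0.79. *STAT5B* passed as higher at 9 h (log2 fold change 0.37), and *STAT5A* and *STAT6* at no time point.

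The inhibitors passed in both directions. Of 6 tested SOCS genes beside *SOCS3*, 1 passed as higher at 3, 5 and 7 h (7.66%, 11.2% and 13.4% of features). As lower, 2 passed at 3 h (5.29%), 1 at 5 h (11.9%), 2 at 7 h (12.4%) and 1 at 9 h (8.42%), and none passed at 1 h or 11 h. *SOCS1*, a feedback inhibitor of the JAK kinases, was scarce but higher with dex. At 3 h it held 13 and 17 reads in the dex libraries and 0 and 1 in the EtOH libraries, a ratio of 31.6 after scaling, with an exact 95% counting interval from 5.25 to 1288. Over all time points it held 103 reads with dex and 22 with EtOH, a ratio of 5.11 (3.20 to 8.51), intervals that cover counting error only. It passed the test at 3, 5 and 7 h (adjusted p = 2.06e-04, 0.0945 and 0.0840). No EtOH library held more than 5 of its reads (0.506 CPM), so only its dex libraries brought it through the filter on low counts. These calls, and the 1 SOCS gene counted above as higher, carry that limit. The SOCS genes that passed as lower were *SOCS2*, *SOCS4* and *SOCS5*. *SOCS2* at 5 h was at 15.3 and 15.5 CPM with dex and 26.1 and 24.3 CPM with EtOH (log2 fold change -0.71, SE 0.15, adjusted p = 3.14e-04), and it also passed as lower at 7 h and 9 h. *SOCS5* passed as lower at 3 h (log2 fold change -0.69, SE 0.11, adjusted p = 1.40e-05) and 7 h (-0.26, adjusted p = 0.0237), and *SOCS4* at 3 h (-0.30, adjusted p = 0.0789). Of 8 PIAS and phosphatase genes, whose products restrain STATs and JAK kinases, 3 passed as higher at each time point from 3 h to 11 h (between 5.31% and 13.4% of features), *PIAS1* and *PIAS3* at all of them with *PTPN6* at 3 h and *PTPN1* from 5 h, and *PTPN2* passed as lower at 3 h (5.29%). *PIAS3*, whose product binds STAT3, passed at all 5 of these times, with log2 fold changes between 0.51 at 5 h and 0.87 at 9 h.

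STAT3 target genes were the largest list, with 26 genes, of which 20 were tested. At 1 h 3 passed as higher and 1 as lower, where 0.523% of features passed as higher and 0.342% as lower. At 3 h 11 passed as higher (7.66%) and none as lower (5.29%). At 5 h 15 were higher (11.2%) and 1 lower (11.9%), and at 7 h 14 were higher (13.4%) and 1 lower (12.4%). At 9 h 11 were higher (9.79%) and 1 lower (8.42%), and at 11 h 10 were higher (5.31%) and none lower (3.27%). The median log2 fold change of the 20 genes was 0.14, 0.35, 0.74, 0.72, 0.55 and 0.66 at the 6 time points. Several of these genes are also known to respond to the GC receptor directly, and the counts cannot tell these routes apart.

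*SERPINA3*, the antichymotrypsin gene, was at 1.87 and 2.27 CPM with dex and 1.04 and 1.37 CPM with EtOH at 1 h. At 5 h it was at 29.8 and 22.8 CPM with dex and 1.85 and 2.41 CPM with EtOH, a 12.3-fold difference (log2 fold change 3.60, SE 0.22, adjusted p = 6.92e-18). It then declined to 6.22 and 6.23 CPM with dex at 11 h, still above 2.26 and 0.766 CPM with EtOH. *FGA* and *FGB*, genes of the fibrinogen alpha and beta chains, passed from 3 h and from 5 h and had their largest log2 fold change at 7 h. *FGA* was then at 63.3 and 69.7 CPM with dex and 9.67 and 11.7 CPM with EtOH (log2 fold change 2.63, SE 0.12), and *FGB* at 37.5 and 43.8 CPM with dex and 10.7 and 11.6 CPM with EtOH (log2 fold change 1.86, SE 0.13). *FGG*, the gene of the third fibrinogen chain, and *FGL1* passed as higher at 5 h and 7 h, and *LBP* at 5 h. *CRP*, *HP*, *A2M*, *SAA1* and *SAA2* were below the filter, with 1, 4, 10, 24 and 81 reads in total. *SAA1* held 23 reads over the dex and 1 over the EtOH libraries, and *SAA2* 52 and 29. *CRP* held 0 and 1, *HP* 2 and 2, and *A2M* 5 and 5. None of these differences was tested.

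*CEBPD* and *CEBPB*, which encode C/EBP factors of the acute-phase response, and *MCL1*, a survival gene of the BCL-2 family, passed as higher at all 6 time points. *CEBPD* was at 13.3 and 12.3 CPM with dex and 4.86 and 4.89 CPM with EtOH at 1 h, and at 19.5 and 21.3 CPM against 3.39 and 4.32 CPM at 5 h. *CEBPB* was at 82.5 and 76.4 CPM against 35.9 and 38.6 CPM at 1 h. *FOS*, *JUNB* and *BCL2L1* did not pass at 1 h and passed as higher at each later time point, with largest log2 fold changes of 1.19 at 7 h, 1.23 at 5 h and 0.96 at 7 h. *BCL3* was the single target called in both directions, lower at 1 h (log2 fold change -0.62, adjusted p = 0.0631) and higher at 5 h (0.83, adjusted p = 1.18e-05) and 7 h (0.37, adjusted p = 0.0189). *BIRC5*, which encodes the apoptosis inhibitor survivin, passed as lower at 5, 7 and 9 h, with log2 fold changes of -0.50, -0.30 and -0.34 (adjusted p = 3.55e-04, 0.0107 and 0.0844). *IRF1* and *TIMP1*, both STAT3 targets in other settings, did not pass at any time point.

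**Figure D4:**
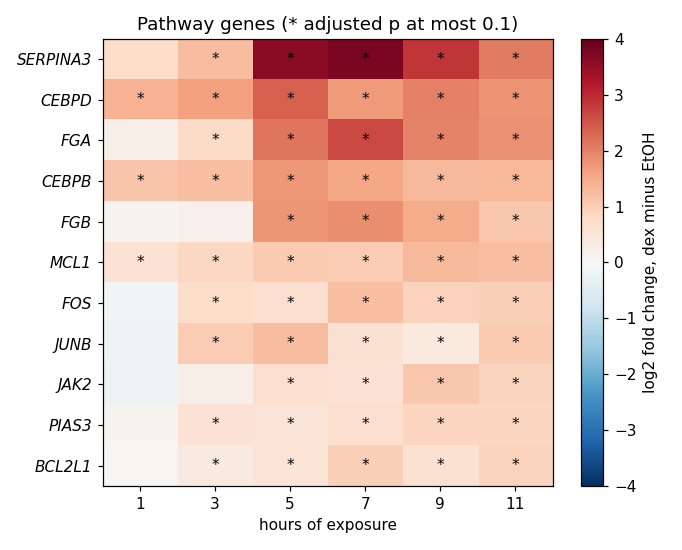
Log2 fold change (dex minus EtOH, colour) at each time point of 11 pathway genes with the largest mean absolute log2 fold change, without the low-count *SOCS1*. Asterisks mark an adjusted p of at most 0.1. *CEBPD*, *CEBPB* and *MCL1* carry asterisks from 1 h, and *SERPINA3* is darkest at 7 h (3.75).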

How the data were processed

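RNA-seq was analysed in 24 A549 libraries, grouped by the treatment, duration and replicate in the labels. The duration was used where the treatment text, which gives 1 h throughout, differs from it. The methods state triplicates, and 2 replicates per group were analysed here. Libraries were stranded. The authors used Bowtie 0.12.9 to align single-end reads of 50 bases to the transcripts of GENCODE 19 and samtools idxstats 1.3.1 to count them, and the deposited values are raw counts per transcript (build hg19 per the labels). The placement of multi-mapped reads, and any use of strand in counting, is not given in the sources used here. The row named * held 0 counts.

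Counts were summed per gene through GENCODE 29 (GRCh38) by transcript identifier without version. Of 119207 transcripts 110262 had a gene. The 8945 others, with 5.92% of counts, were tested singly. The 4 libraries of a time point were fitted together (2 dex, 2 EtOH) with edgeR 4.0.16 (TMM, filterByExpr over 12 groups, quasi-likelihood F-test with robust estimation), with Benjamini-Hochberg adjustment over 19897 features and a threshold of 0.1. SE is the log2 fold change over the square root of F. A fit over 24 libraries gave averages and differences between times. All adjusted p in the text are from these fits unless another test is named. Replicates differed by more than sampling noise (chi-square per degree of freedom at least 2.30). The p-values weigh each difference against the spread between these samples. With 2 libraries per group, the spread of each feature was estimated with information shared over all features. Scripts were tested on simulated data. DESeq2, other size factors, filters, a block, single transcripts and left-out libraries were tried as alternatives. TPM used GENCODE 29 lengths. Promoter windows are from RefSeq (GRCh38.p14). R was 4.3.3, DESeq2 1.42.0 and matplotlib 3.10.9.

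The members and lists were chosen with earlier results of these data known. Pathway genes were named if called at 2 or more consecutive time points, at most the 12 with the largest mean absolute log2 fold change, or if at 0 counts. The genes of highest Pearson r (log2 CPM, prior count 2) were named, 3 for each of 3 members. *SOCS7* and *PECAM1* were not analysed here. Results for 1 other gene of the lists are not reported here.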

Additional observations from a re-analysis of the deposited data

Results flagged for a closer look

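The effect of dex differed between 2 time points for several members, by the test of that difference over the 24 libraries. From 1 h to 3 h the log2 effect changed by -1.52 for *IL11* (SE 0.28, adjusted p = 0.00129), by -0.72 for *LIF* (SE 0.21, adjusted p = 0.0688), by 1.73 for *IL6R* (SE 0.23, adjusted p = 1.36e-05), by 0.81 for *LIFR* (SE 0.19, adjusted p = 0.0139), by -0.44 for *OSMR* (SE 0.13, adjusted p = 0.0726) and by 0.43 for *JAK1* (SE 0.12, adjusted p = 0.0477). From 5 h to 11 h it changed by -0.59 for *OSMR* (SE 0.13, adjusted p = 0.0202) and by -0.46 for *JAK1* (SE 0.12, adjusted p = 0.0529). Groups of 2 libraries are too small for a test of single outlying samples.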

How the results depend on the processing

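No call on a member changed under DESeq2, DESeq2 size factors in edgeR, either filter on low counts or a single fit over 24 libraries, and the member counts per time point at a threshold of 0.05 stayed within 1.5 times, with *JAK1* at 11 h (adjusted p = 0.0502) no longer called. At that threshold the change of the dex effect from 5 h to 11 h was called for 1 member in place of 2, without *JAK1* (0.0529), and that from 1 h to 3 h for 4 in place of 6, without *LIF* (0.0688) and *OSMR* (0.0726). Taking each gene's single leading transcript left 1 member at 1 h, where *IL6ST* was lost (adjusted p = 0.145) and *STAT3* turned from 0.0219 to -0.0260, neither of which passed. *STAT3* at 3 h and *JAK1* at 11 h were lost too (0.142 and 0.124). The number of features called moved more. DESeq2 called 1324, 2660, 2727 and 2032 at 3, 5, 7 and 9 h against 2576, 4606, 5134 and 3623 with edgeR. No filter gave 307 against 172 at 1 h, and the single fit 2971 against 1707 at 11 h. The cause was not tested.

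Leaving out 1 library of a time point, the lone library then assumed to vary like the other treatment, gave 94 to 762 features at 1 h, 1543 to 3010 at 3 h, 2662 to 5901 at 7 h, 1304 to 6103 at 9 h and 856 to 5868 at 11 h. Members called ranged from 1 to 4 at 1 h and from 5 to 9 at 11 h. At 1 h, log2 fold changes that did not pass changed sign for *OSMR* (-0.11 to 0.12) and *STAT3* (-0.0399 to 0.0880). The average *SOCS3* effect was 0.64 to 0.67 without either replicate number, and did not pass in the first case.

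The methods call the ethanol control paired and do not say whether replicate numbers give the pairs. Same-numbered libraries of dex and EtOH had correlated deviations at 1 h (r = 0.35) and 9 h (r = 0.19). Deviations were opposed at 3 h (r = -0.20), with r between 0.018 and 0.038 at 5, 7 and 11 h. The numbers were therefore not taken as pairs, and the main calls, those at 1 h included, come from unpaired fits. The replicate number as a block gave 634 features at 1 h against 172, and *LIF* then passed at 1 h (adjusted p = 0.0516). It changed no other call on a member, and the average effect of *IL11* stayed at -3.17 with it. With numbers crossed at 3 h, a pairing chosen after seeing the data, 4181 features and 8 members were called. Depth limits *IL6* and *SOCS1*, with at most 6 and 17 reads in a library.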
